A study of Mus musculus with 6 samples.

Results

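The members of the immediate early AP-1 and Egr group described here are Fos, Fosb, Fosl1, Fosl2, Jun, Junb, Jund, Egr1, Egr2 and Atf3. They were chosen by gene name, giving 10 of the 46983 genes in the deposited gene table, and all 10 had an RPKM (reads scaled by exonic length and sequencing depth) of at least 0.1 in 3 or more libraries. The libraries came from aortic valves of wild type C57BL/6J mice at postnatal day 2 (PND2), when the leaflets are still growing, and at 4 months of age, when they are mature. There were 3 libraries per age, each made from the pooled valves of 5 to 6 mice, and the comparison between PND2 and 4 months is the one that the study was designed for. No treatment is named for either age, and the valves were dissected in cold buffer and frozen before RNA was extracted. The paper reports that carbon dioxide exposure was followed by cervical dislocation in adult mice and by decapitation in pups. This step and age cannot be told apart. The whole valve was sequenced, so fewer cells of a type and less RNA per cell cannot be told apart in any value below.

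Immediate early genes are transcribed within minutes of a stimulus such as serum, stretch, injury or heat, without new protein synthesis. Fos proteins (Fos, Fosb, Fosl1 and Fosl2) pair through a leucine zipper with Jun proteins (Jun, Junb and Jund) to form AP-1, which binds TGANTCA sites, whereas Jun proteins can also pair with each other or with Atf3, a stress-induced member of the ATF/CREB family. Egr1 and Egr2 are zinc finger factors that bind GC-rich sites and are switched on by many of the same signals.

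At 4 months 8 of the 10 members were called higher than at PND2 and 0 were called lower (0 also at an unadjusted p under 0.05 and with voom), in limma's test of log2(RPKM + 0.1) with a Benjamini-Hochberg adjusted p under 0.05. Of the 25903 genes tested, 35.8% were called in either direction, 14.7% higher at 4 months and 21.1% lower. Atf3, Fosb and Fos had the largest changes, with mean RPKM 14.6, 12.7 and 8.24 times as high at 4 months, and Fosl1 and Egr2 were not called. The combination of an adjusted p below 0.1 and a more than 2-fold change, the thresholds in the series' design text, was met by 7 members, all but Jund among the called ones, against 9.50% of all genes tested in that direction. In 8 of the 10 members no 4-month library overlapped a PND2 library, which held for 50.0% of all genes tested. The median log2 fold change over all genes tested was -0.14.

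**Figure D1:**
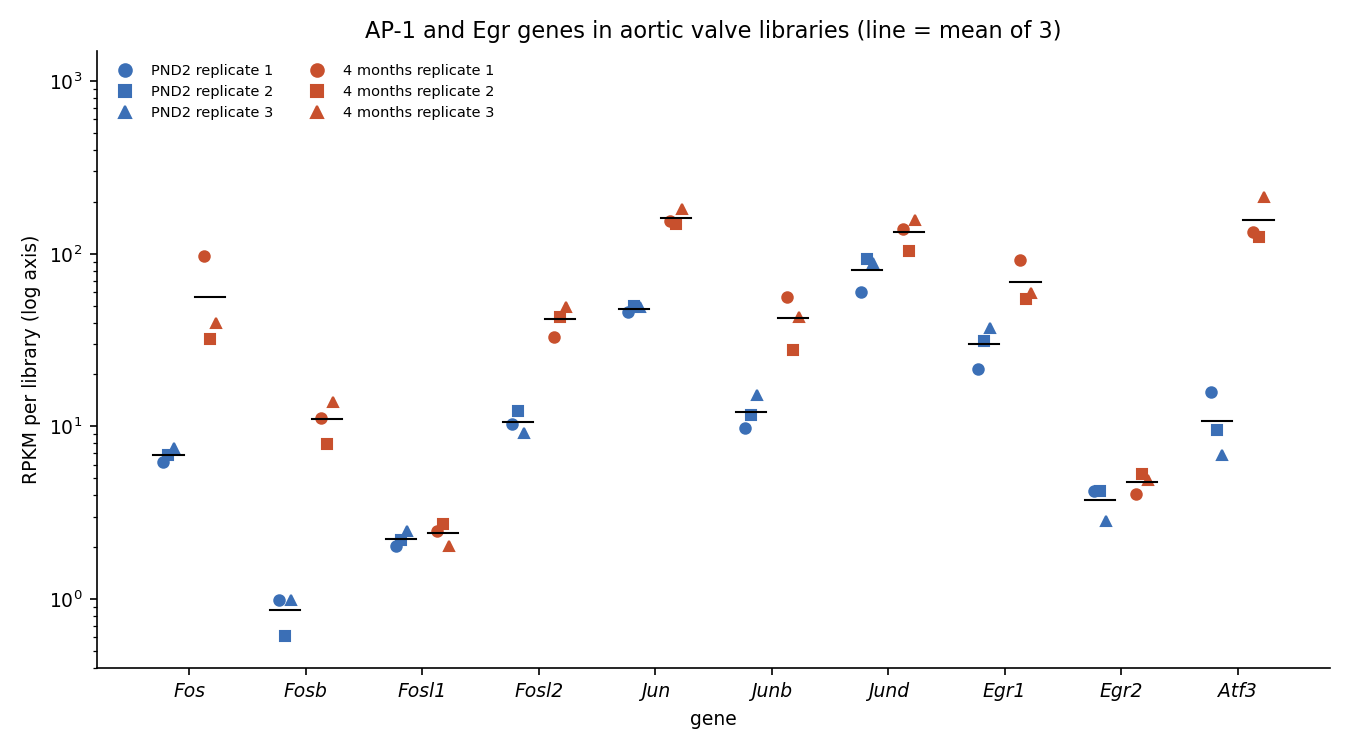
RPKM (log axis) of the 10 members in each of the 6 libraries, with circles, squares and triangles for replicates 1, 2 and 3 and a line at the mean of each age. Fosl1 and Egr2 are the genes whose PND2 (blue) and 4-month (orange) points overlap, and Fos spreads from 32.3 to 97.2 RPKM at 4 months.

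To show what lies in front of the genes with the largest changes (Atf3, Fosb and Fos), of Jun, the member with the smallest adjusted p, and of one that was not called, the 250 bases before the transcription start are given for Fos, Fosb, Jun, Atf3 and Egr2, from RefSeq on GRCm38.p6 (the same build as mm10). Windows on the chromosome of Egr1 were left out of the search, and the RefSeq windows searched matched 8 of the 10 members. The Atf3 start lies a few bases inside the first exon of the deposited annotation, and Egr2 has several starts, of which the one at the 5′ end of its first expressed exon is shown. Sequences run 5′ to 3′ on the gene's own strand, and the capitals mark matches to the 8 motifs searched.
Fos (chr12:85473640-85473889, plus strand): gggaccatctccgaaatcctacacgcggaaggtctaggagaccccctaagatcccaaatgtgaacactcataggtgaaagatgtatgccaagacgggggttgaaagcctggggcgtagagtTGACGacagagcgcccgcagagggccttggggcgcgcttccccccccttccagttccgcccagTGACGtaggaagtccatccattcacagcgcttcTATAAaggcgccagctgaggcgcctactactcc
Fosb (chr7:19310046-19310295, minus strand): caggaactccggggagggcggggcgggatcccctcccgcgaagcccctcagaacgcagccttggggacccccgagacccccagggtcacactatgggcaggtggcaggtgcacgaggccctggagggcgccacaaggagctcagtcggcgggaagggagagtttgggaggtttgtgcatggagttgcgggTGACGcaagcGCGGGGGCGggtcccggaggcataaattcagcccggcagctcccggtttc
Jun (chr4:95052223-95052472, minus strand): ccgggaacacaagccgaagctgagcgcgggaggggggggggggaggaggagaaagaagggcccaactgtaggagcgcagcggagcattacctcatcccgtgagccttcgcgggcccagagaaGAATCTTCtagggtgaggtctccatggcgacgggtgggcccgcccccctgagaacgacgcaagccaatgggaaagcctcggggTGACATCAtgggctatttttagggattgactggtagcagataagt
Atf3 (chr1:191183334-191183583, minus strand): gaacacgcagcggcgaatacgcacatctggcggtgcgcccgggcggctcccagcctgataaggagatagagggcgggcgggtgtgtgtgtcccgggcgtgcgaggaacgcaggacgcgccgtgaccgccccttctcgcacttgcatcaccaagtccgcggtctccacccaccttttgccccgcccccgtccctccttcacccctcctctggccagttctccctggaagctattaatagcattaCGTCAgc
Egr2 (chr10:67537619-67537868, plus strand): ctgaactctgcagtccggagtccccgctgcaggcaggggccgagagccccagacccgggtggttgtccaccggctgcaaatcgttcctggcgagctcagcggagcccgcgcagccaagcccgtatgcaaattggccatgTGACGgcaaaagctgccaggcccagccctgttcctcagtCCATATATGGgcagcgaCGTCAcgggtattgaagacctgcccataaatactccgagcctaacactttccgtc
Both strands were searched for the cyclic AMP response element TGACGTCA and its half-site TGACG, the AP-1 sites TGANTCA and TGACATCA, the Egr site GCGNGGGCG, the CArG box bound by serum response factor, TATAA, and the heat shock element core GAANNTTC. A full TGACGTCA holds a half-site on each strand, and some forms of the CArG box hold a TATAA. The CArG box shown for Egr2 (CCATATATGG) does not. The Fos window held 2 half-sites, beginning 129 and 66 bases before the start, and a TATAA at 33 bases. Fosb had a half-site at 60 bases and an Egr site at 50 bases. For Jun the matches were TGACATCA at 45 bases and a heat shock element core at 128 bases. The single match for Atf3 was a half-site at 7 bases, read on the opposite strand. Egr2 held half-sites at 111 and 55 bases and a CArG box at 72 bases. The same 250-base stretch was searched in 32851 RefSeq windows, some of them from the same gene and none from the chromosome of Egr1. There TGACG matched 17.8%, TATAA 22.8%, TGANTCA 6.75%, GAANNTTC 6.69%, the Egr site 4.70%, TGACATCA 2.93%, TGACGTCA 1.55% and the CArG box 1.47%. Half-sites thus stood in the windows of Fos, Fosb, Atf3 and Junb (window not shown), which rose, and in that of Egr2, which was not called. The windows of Jun and of Fosl2 and Jund (not shown), which also rose, held no half-site. For Fosl2 the window (chr5:32136222-32136471) lies within the first exon of the deposited annotation (chr5:32135801-32136805). The bases before that exon were thus not searched. These matches describe the letters only.

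Among the Fos family, Fos itself (chr12:85473890-85477273, plus strand, mm10) is the prototype partner of Jun and decays quickly after induction. Fos RPKM was 6.25, 6.81 and 7.47 in the PND2 libraries and 97.2, 32.3 and 39.7 in the 4-month libraries. All 4-month values lay above all PND2 values, and at 4 months the highest library, replicate 1, was 3.01 times the lowest. The mean rose from 6.84 ± 0.611 to 56.4 ± 35.5 (SD, n = 3), a log2 fold change of 2.85 (SE 0.38, 95% confidence interval 1.97 to 3.73, limma adjusted p = 0.00149). Without replicate 1 at 4 months the ratio of means was 5.25 in place of 8.24, the log2 value was 2.37, and the call was kept. With a per-gene unequal-variance test the adjusted p of Fos was 0.0950 and the call was lost, the only one of 18 alternatives to do so (range 4.00e-04 to 0.0950).

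Fosb (chr7:19302721-19310045, minus strand), a Fos protein with a strong activation domain, had the lowest PND2 level of the 10 members. Its RPKM was 0.991, 0.611 and 0.993 at PND2 and 11.2, 7.94 and 13.9 at 4 months, so that the lowest 4-month library stood 7.99 times above the highest PND2 library. The log2 fold change was 3.52 (SE 0.28, interval 2.86 to 4.18, limma adjusted p = 2.07e-04). Behind the PND2 values were 145, 70 and 109 reads.

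Fosl2 (chr5:32135801-32157842, plus strand) encodes Fra-2, a Fos protein without the strong activation domain that is known for roles in bone and fibrosis. It measured 10.3, 12.2 and 9.17 RPKM at PND2 against 32.9, 43.2 and 49.5 at 4 months. The groups were well apart, and here replicate 1 was the lowest of the 4-month libraries rather than the highest. Fosl2 rose with a log2 fold change of 1.96 (SE 0.18, limma adjusted p = 3.29e-04).

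Fosl1 (chr19:5447703-5455945, plus strand), which encodes Fra-1, was the member of the family that was not called. Its 6 values were 2.04, 2.21 and 2.48 RPKM at PND2 and 2.48, 2.73 and 2.04 RPKM at 4 months, and the ages overlapped. The log2 fold change was 0.10, with a 95% confidence interval from -0.39 to 0.58, that is from 0.766 to 1.50 times the PND2 level (limma adjusted p = 0.747). A rise of the size of Fos, Fosb or Fosl2 lies outside that interval.

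Jun (chr4:95049034-95052222, minus strand), the Jun protein that most strongly activates AP-1 targets and is itself phosphorylated by JNK, had the smallest spread of the members that rose. The PND2 libraries had 45.8, 49.8 and 48.9 RPKM and the 4-month libraries 155, 149 and 182 RPKM. Within an age the libraries differed by a coefficient of variation of 4.45% at PND2 and 11.0% at 4 months, while the means differed 3.36 times. Jun gave a log2 fold change of 1.74 (SE 0.10, limma adjusted p = 6.35e-05), the smallest adjusted p of the 10 members. On the opposite strand lies the antisense gene Junos, at 1.87 to 2.41 RPKM at PND2 and 5.25 to 7.52 RPKM at 4 months. Use of strand in the counting is not given in the sources used here, so reads of the pair may be mixed.

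Junb (chr8:84976909-84978748, minus strand), which can restrain Jun in some settings, had 9.74, 11.7 and 15.2 RPKM at PND2 and 56.3, 27.7 and 43.0 RPKM at 4 months. Its groups did not overlap, with the highest 4-month library at 2.04 times the lowest. The log2 fold change was 1.75 (SE 0.27, limma adjusted p = 0.00291). As for Fos, the call was lost in 1 of 18 alternatives, the per-gene unequal-variance test (adjusted p = 0.0644, range 9.07e-04 to 0.0644).

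Jund (chr8:70697739-70700616, plus strand), the Jun protein that is expressed most steadily in resting cells, was the most abundant member at PND2. It read 59.8, 93.5 and 88.3 RPKM there and 140, 104 and 158 RPKM at 4 months. The highest PND2 library and the lowest 4-month library were only 1.11 times apart. The log2 fold change was 0.74 (SE 0.21, interval 0.23 to 1.24, limma adjusted p = 0.0330). This call was lost in 8 of 18 alternatives (adjusted p 0.0167 to 0.143), among them leaving out replicate 1 or 3 of either age, when the log2 fold change was between 0.54 and 0.82. Gm11175, a gene on the opposite strand of the same locus, measured 112 to 178 RPKM at PND2 and 176 to 285 RPKM at 4 months, so the Jund values are uncertain.

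**Figure D2:**
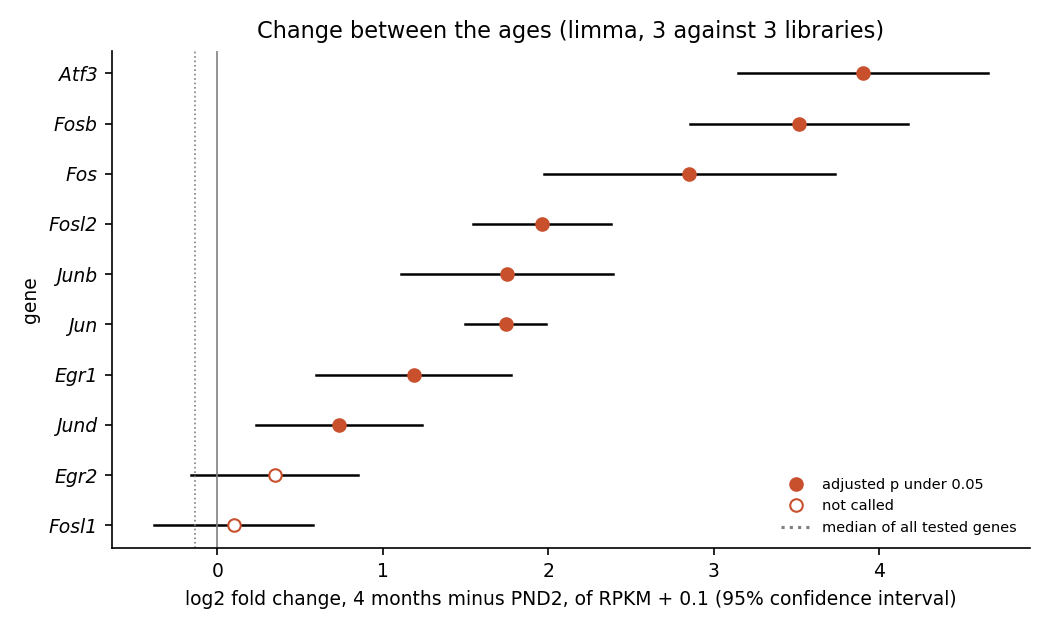
Log2 fold change of each member (4 months minus PND2, on log2 of RPKM + 0.1) with its 95% confidence interval from limma, filled where called. Atf3 is farthest right at 3.90 and Fosl1 nearest to 0 at 0.10, and only the intervals of Egr2 and Fosl1 reach 0.

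Egr1 (chr18:34859823-34864984, plus strand), a zinc finger activator induced by growth factors, stretch and injury, had 21.7, 31.3 and 37.1 RPKM at PND2 and 91.6, 54.6 and 59.6 RPKM at 4 months. The ages did not overlap, although the highest PND2 library came within 1.47 times of the lowest 4-month library. Egr1 was higher at 4 months by 1.19 on the log2 scale (SE 0.25, limma adjusted p = 0.0102), and the per-gene unequal-variance test was the 1 alternative of 18 that lost the call (adjusted p = 0.0866, range 0.00335 to 0.0866).

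Egr2 (chr10:67535475-67542188, plus strand), also known as Krox20 and a regulator of myelination and immune cells, measured 4.21, 4.25 and 2.84 RPKM at PND2 and 4.09, 5.31 and 4.88 RPKM at 4 months. Its ages overlapped, with replicate 1 at 4 months below the 2 higher PND2 libraries. The log2 fold change of 0.35 had a confidence interval from -0.16 to 0.85, or 0.896 to 1.80 times (limma adjusted p = 0.254).

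Atf3 (chr1:191170296-191218039, minus strand), a stress-responsive factor that mostly represses transcription as a homodimer and can pair with Jun proteins, showed the largest change of the 10. Atf3 RPKM was 15.8, 9.49 and 6.87 at PND2 and 133, 125 and 213 at 4 months. The lowest 4-month library was 7.92 times the highest PND2 library. Its mean rose from 10.7 ± 4.60 to 157 ± 48.4 (SD, n = 3), with a log2 fold change of 3.90 (SE 0.32, interval 3.15 to 4.66, limma adjusted p = 2.30e-04).

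The order of the levels differed between the ages. At PND2, in RPKM means, it ran from Jund (80.5) over Jun (48.2), Egr1 (30.0) and the group of Junb, Atf3 and Fosl2 (12.2, 10.7 and 10.6) to Fos (6.84), Egr2 (3.77), Fosl1 (2.24) and Fosb (0.865), and only the neighbours within the group of Junb, Atf3 and Fosl2 had overlapping ranges. At 4 months Jun (162), Atf3 (157) and Jund (134) were at the top with ranges that overlapped from neighbour to neighbour. Egr1 (68.6), Fos (56.4), Junb (42.3) and Fosl2 (41.8) followed, again with overlapping neighbours, and then Fosb (11.0), Egr2 (4.76) and Fosl1 (2.42) with none. Atf3 thus moved from the fifth place to the second, and Fosl1 from the ninth to the last.

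Summed over the 4 genes, Fos family RPKM was 20.5 ± 1.19 at PND2 and 112 ± 29.4 at 4 months, 5.44 times as much. The 3 Jun family genes summed to 141 ± 22.2 and 338 ± 52.8 RPKM, a ratio of 2.40. Within the Jun family, Jund held 51.9 to 60.3% of the summed RPKM in the PND2 libraries and 37.0 to 41.2% in the 4-month libraries. Jun went the other way, from 32.1 to 39.7% at PND2 to 44.2 to 53.1% at 4 months, and neither share overlapped between the ages. These sums and shares contain the Jund values, which are uncertain because of the gene on the opposite strand. In the Fos family Fosl1 held 10.1 to 12.3% at PND2 and 1.72 to 3.17% at 4 months, and Fosb 2.80 to 5.06% and 7.79 to 13.3%. Fos took 37.5 to 67.6% at 4 months against 31.2 to 37.1% at PND2, so the ranges lay close together, and only replicate 1 at 4 months was far above. The Fosl2 share overlapped between the ages. These shares are given as ranges, because an exact permutation test on so few libraries has 0.1 as its smallest 2-sided p.

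**Figure D3:**
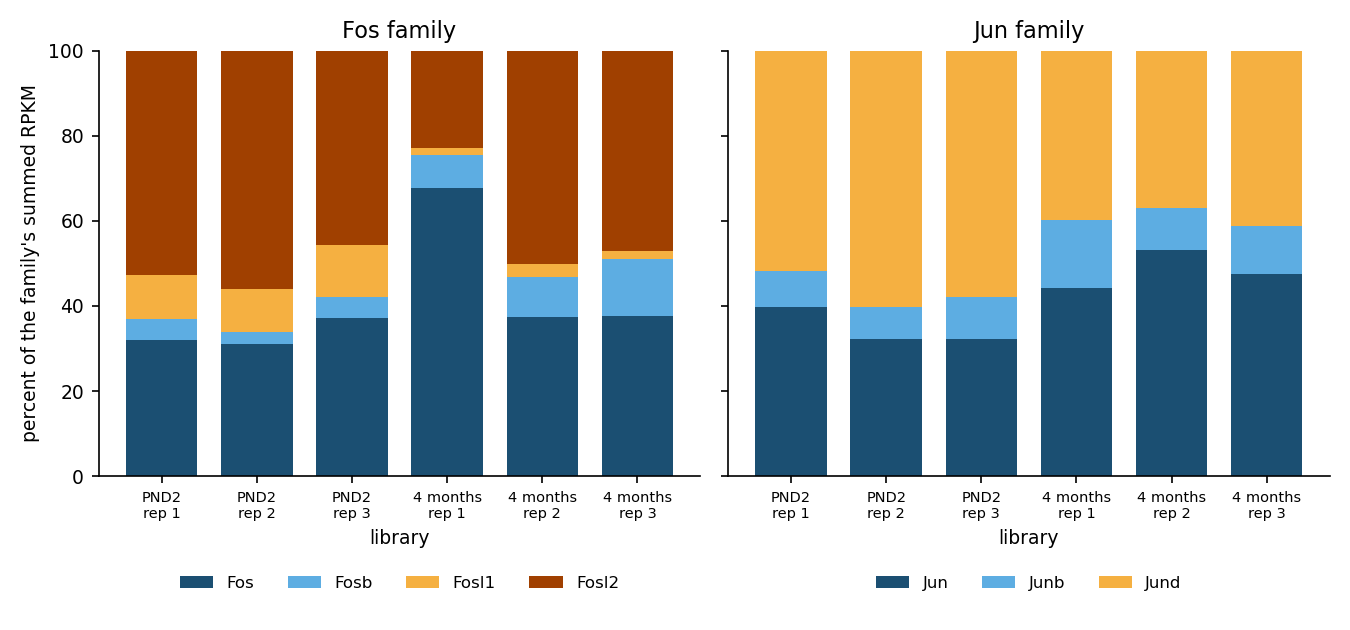
Share (percent) of each gene in the summed RPKM of the Fos family (left) and the Jun family (right), 1 bar per library. The Jund values behind the Jun family bars are uncertain because of the overlapping Gm11175, and the Jund share is 51.9 to 60.3% in the PND2 bars and 37.0 to 41.2% in the 4-month bars, and the Fos share of 67.6% in replicate 1 at 4 months stands out.

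Exon values were read to see whether the whole transcript moved. Of the members that rose, every exon of the principal transcript was higher at 4 months, in means by 7.69 to 10.8 times for Fos, 13.4 to 15.8 times for Atf3, 3.64 to 6.04 times for Fosl2, 2.28 to 2.36 times for Egr1, and 10.4 to 54.0 times for Fosb. The first 3 exons of Fosb held 1 to 14 reads each in the PND2 libraries, whereas the last exon (chr7:19302721-19305302) held 132, 61 and 90 reads there. That last exon is also the one with the smallest ratio, at 1.31, 0.774 and 1.19 RPKM at PND2 and 11.5, 8.26 and 14.3 RPKM at 4 months. Fosl1 values came mostly from its exons 3 and 4. Exon 4 (chr19:5454892-5455945) measured 2.87 to 3.70 RPKM at PND2 and 2.75 to 3.66 RPKM at 4 months. Exon 3 (chr19:5454413-5454520) measured 1.90 to 3.34 and 1.92 to 3.50 RPKM. Exon 2 held at most 6 reads in a library, and exon 1 at most 1 read at PND2 and 4 to 6 reads at 4 months. The ends of the deposited entry used as exon 1 differ from those of the principal exon by 156 bases. In Atf3 the distal exon (chr1:191217870-191218039) had 0 reads in all 6 libraries, and so did 3 distal exon entries of Egr2 (between chr10:67535475 and 67535738). The first exon of Egr1 measured 4.26 to 9.14 RPKM at PND2 and 11.4 to 24.1 RPKM at 4 months. The second had 35.2, 48.8 and 58.9 RPKM at PND2 and 144, 88.2 and 93.0 RPKM at 4 months. Most reads of the first exon fell at its 3′ end. A shorter exon entry there (chr18:34861370-34861786) held 1134 of its 1373 reads at PND2. That entry measured 17.0 to 34.8 RPKM at PND2 and 45.7 to 95.2 RPKM at 4 months. The gene value of Egr1 is thus lower than that of its main exon.

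**Figure D4:**
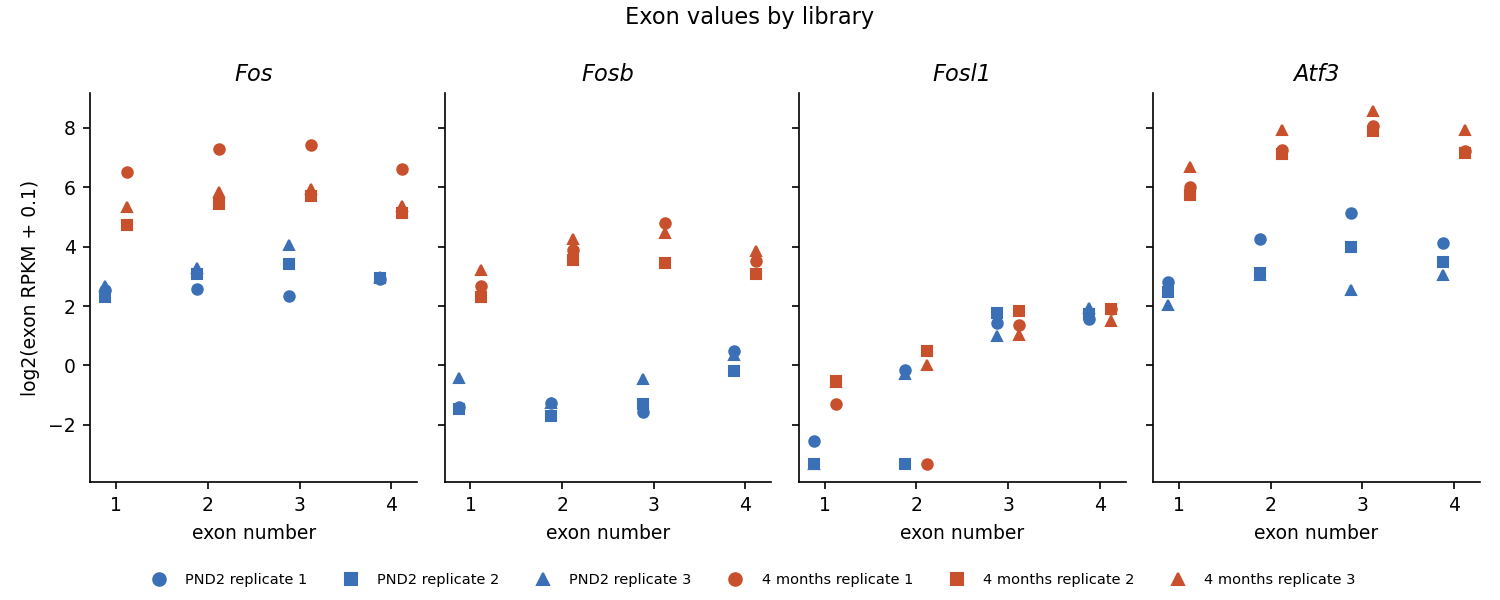
Log2 of exon RPKM + 0.1 for the exons of the principal transcripts of Fos, Fosb, Fosl1 and Atf3, numbered from the 5′ end, with 1 point per library (blue PND2, orange 4 months). The ages are apart in every exon of Fos, Fosb and Atf3 and overlap in exons 2 to 4 of Fosl1.

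The 3 libraries at 4 months did not rank the 8 members that rose in 1 order. Fos, Junb and Egr1 were highest in replicate 1, and Fosb, Fosl2, Jun, Jund and Atf3 in replicate 3. Replicate 2 was the lowest for 7 of the 8, with Fosl2 as the exception. Relative to the PND2 mean, Fos stood at 14.2, 4.72 and 5.79 times in replicates 1, 2 and 3, and Atf3 at 12.4, 11.7 and 19.8 times. Smooth muscle markers were also highest in replicate 1 (4 of 4) and all 7 called heat shock genes in replicate 3. Of the macrophage markers called higher, 3 of 4 were highest in replicate 1, and of the adipocyte markers 4 of 4 in replicate 2. Other immediate early genes called higher were highest in replicate 3 in 9 of 15 cases, and textbook AP-1 and Egr targets in 5 of 7. How often each library was highest over all genes was not counted. The part of these genes in the differences between the 4-month libraries was not tested.

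Of 22 other immediate early genes, 15 were called higher at 4 months, 3 lower and 4 were not called, with a median log2 fold change of 1.15. Over all genes tested, 14.7% were called higher and 21.1% lower. Arc, a synaptic immediate early gene, had 0.436, 0.300 and 0.0335 RPKM at PND2 and 5.48, 5.84 and 8.47 RPKM at 4 months, which is 4.42 on the log2 scale (limma adjusted p = 9.31e-04). The ratio of its means was 25.7, and 39.5 without PND2 replicate 1. The orphan nuclear receptor genes all rose, Nr4a1 from 16.4 ± 2.95 to 161 ± 24.3 RPKM (log2 fold change 3.29), Nr4a2 from 3.37 ± 0.866 to 12.4 ± 3.01 (1.85) and Nr4a3 from 0.911 ± 0.126 to 9.95 ± 4.93 (3.17). The matricellular gene Cyr61 went from 192 ± 49.4 to 913 ± 160 RPKM (2.26), the antiproliferative gene Btg2 rose by 1.87 on the log2 scale, Zfp36, which destabilises mRNAs, by 1.32, and Rhob by 1.17. Klf6 (1.13), Klf4 (0.95), Sik1 (1.18), Csrnp1 (1.34), Ppp1r15a (0.90) and Mcl1 (0.46) were called higher as well, in log2 fold change, as was Dusp1, given with the feedback inhibitors. The 3 that fell were Myc (11.8 ± 2.18 to 5.21 ± 1.12 RPKM, log2 fold change -1.17), Gadd45b (-1.07) and Ier3 (-0.64). Ier2, Ier5, Trib1 and Per1 were not called, at log2 fold changes of -0.05, 0.07, -0.02 and 1.03.

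**Figure D5:**
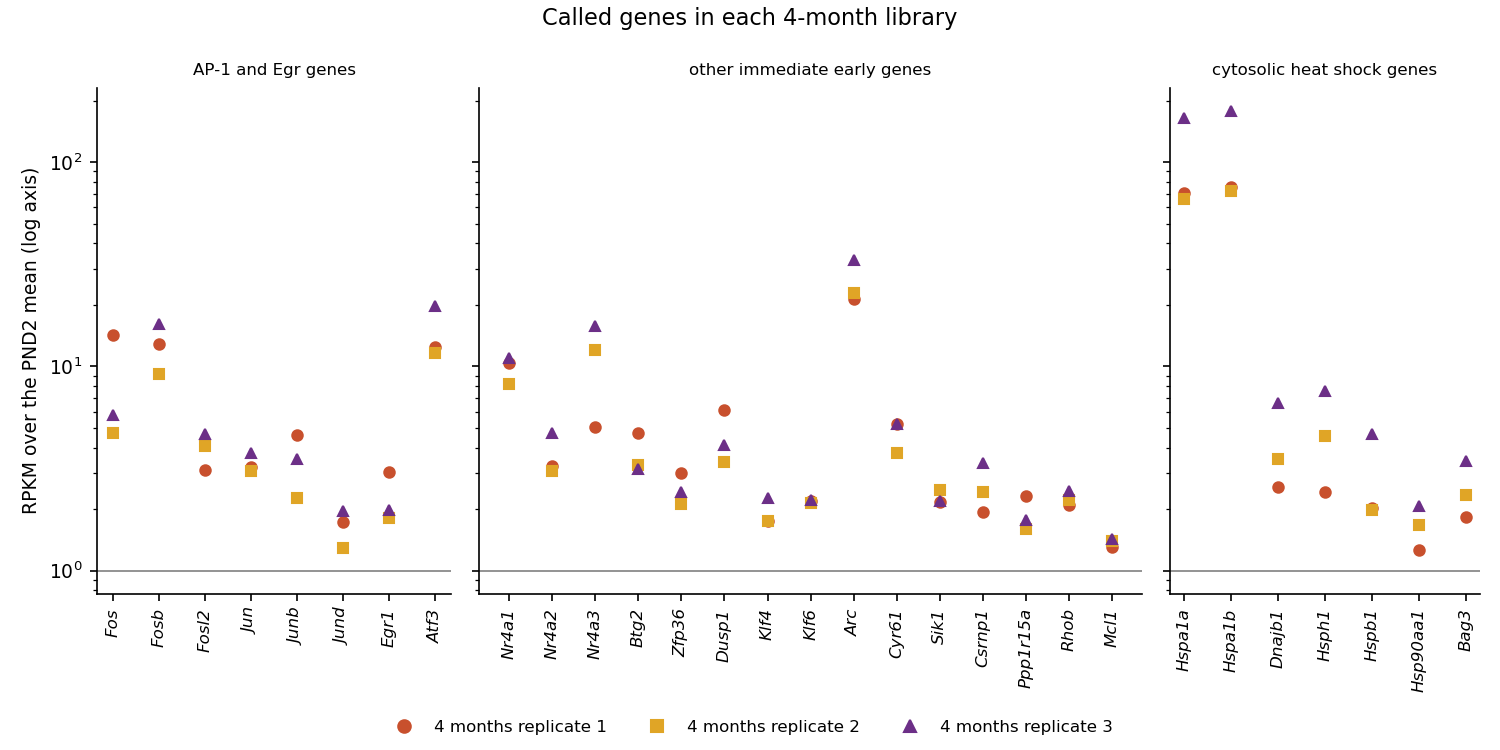
RPKM of each 4-month library divided by the PND2 mean (log axis) for the 8 members, the 15 other immediate early genes and the 7 heat shock genes called higher, with a line at 1. Replicate 3 (triangles) is highest for all 7 heat shock genes, while replicate 1 (circles) is highest for Fos, Junb and Egr1.

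The Egr relatives and the Nab corepressors, which bind Egr proteins and dampen them, were 3 of 3 called higher among those tested (median log2 fold change 0.62). The share called higher among all genes tested was 14.7%. Egr3 had 2.59, 2.59 and 2.27 RPKM at PND2 and 7.15, 7.47 and 7.93 RPKM at 4 months, 3.03 times as much in the means (log2 fold change 1.56, limma adjusted p = 4.18e-04), and its libraries were closer to each other than those of Egr1. Nab1 and Nab2 rose by 0.62 and 0.60 on the log2 scale. Egr4 was below the level tested, with at most 6 reads in a library.

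Other AP-1 partners of the ATF, Maf, Batf and CREB groups had 5 of 16 genes called higher and 1 lower (median log2 fold change 0.33). Taken over both directions this is near the 35.8% called among all genes tested, of which 14.7% were higher and 21.1% lower. Atf5 (31.0 ± 5.00 to 118 ± 15.1 RPKM) and Mafk (16.0 ± 3.07 to 32.5 ± 2.49 RPKM) were among those that rose, and Batf was the one that fell (log2 fold change -0.88).

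Of 14 upstream regulators, the serum response factor and its cofactors and the MAP kinases that act on immediate early promoters, 0 were called higher in limma (0 also at an unadjusted p under 0.05 and with voom) and 4 lower (median log2 fold change -0.18). Among all genes tested, 14.7% were called higher and 21.1% lower, so the number called lower is not far from that share. Elk3, a ternary complex factor that can repress Fos, fell from 57.6 ± 6.54 to 26.4 ± 0.882 RPKM (log2 fold change -1.12, limma adjusted p = 3.85e-04). Mapk8, which encodes JNK1, fell by 0.70 on the log2 scale and Mapk7 by 0.57. The number called was 2 rather than 4 without PND2 replicate 2 or 3 or 4-month replicate 1 or 3. Mapk7 lost its call in 8 of 18 alternatives, 5 of them with a library left out (adjusted p 0.00625 to 0.153), Mapk8 in 1 (0.00130 to 0.0628) and Elk3 in 0 (9.21e-05 to 0.0412). Among 10 feedback inhibitors of the MAP kinase pathway 2 were called higher and 2 lower (median 0.26). Dusp1, a phosphatase that is itself an immediate early gene, rose from 30.0 ± 1.79 to 137 ± 42.2 RPKM (log2 fold change 2.14) and was highest in replicate 1 at 4 months, like Fos. Spred2 also rose (0.68), whereas Spry1 and Spry2 fell (-0.75 and -0.38).

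Textbook AP-1 and Egr targets were called higher in 7 of 17 cases and lower in 1, with a median log2 fold change of 0.12. The shares among all genes tested were 14.7% higher and 21.1% lower. The stromelysins moved most, Mmp3 from 1.10, 1.15 and 1.41 RPKM at PND2 to 90.8, 64.2 and 103 RPKM at 4 months (log2 fold change 6.01, limma adjusted p = 1.25e-05). Mmp10 had 9, 4 and 0 reads in the PND2 libraries and 206 to 296 reads at 4 months (log2 fold change 5.03). Ptgs2, the inducible cyclooxygenase, rose from 1.29 ± 0.465 to 17.8 ± 7.47 RPKM. The chemokine gene Ccl2 fell (log2 fold change -1.09).

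Cytosolic heat shock genes were called higher in 7 of 10 cases and lower in 0 with limma, at an unadjusted p under 0.05 or with voom (median log2 fold change 1.36). With limma, 14.7% of all genes tested were called higher and 21.1% lower. Hspa1a, an inducible Hsp70 gene, measured 10.4, 8.63 and 8.33 RPKM at PND2 and 647, 601 and 1495 RPKM at 4 months, and its near-identical copy Hspa1b 9.22 to 9.39 and 673 to 1664 RPKM. Reads of these copies cannot be assigned with certainty, so the pair is best read as 1 value. The log2 fold change was 6.51 for Hspa1a and 6.61 for Hspa1b. Hsph1 had 16.2, 14.7 and 14.4 RPKM at PND2 and 36.4, 69.1 and 115 RPKM at 4 months, a log2 fold change of 2.13. Of the 7 called genes, all highest in replicate 3 like 5 of the 8 members that rose, Hspa1a, Hspa1b and Hspb1 were lowest in replicate 2, as were 7 of those 8 members, and the other 4 in replicate 1.

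Genes with the pattern most like Fos, Jun and Egr1 over the 6 libraries were looked for among 14207 genes with a mean of at least 5 RPKM over the 6 libraries, by the Euclidean distance of centred log2(RPKM + 0.1). Nearest to Fos were Optc, the gene of the extracellular proteoglycan opticin (distance 0.66), the pseudogene Gm21956 (0.73) and Mmp17 (0.78). Optc had 3.33, 5.45 and 5.69 RPKM at PND2 and 46.7, 19.5 and 28.4 RPKM at 4 months. The histone gene Hist1h2bc (0.19), Serpini1 (0.20) and Gem (0.22) were nearest to Jun, and Dhrs3 (0.19), St5 (0.20) and Mpv17l (0.25) to Egr1. The 3 distances for Fos were larger than those for Jun and Egr1, and reads of the pseudogene may belong to a near-identical gene.

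Markers of the cells in a dissected valve differed between the ages as well, where 14.7% of all genes tested were called higher and 21.1% lower. Valve interstitial markers summed to 5575 to 6066 RPKM at PND2 and 6857 to 8624 at 4 months, with 1 of 6 called higher (Dcn) and 3 lower. Of the endothelial markers 5 of 5 fell (312 to 434 against 179 to 185 RPKM summed) and of the cardiomyocyte markers 3 of 6 (12447 to 13380 against 5314 to 7760). Smooth muscle markers rose in 4 of 4 cases (7045 to 8127 against 15929 to 26753), and macrophage markers in 4 of 5 (129 to 161 against 276 to 348). Adipocyte markers rose in 4 of 4 cases from 0.0545 to 0.227 up to 69.4 to 254 RPKM, with Cidec and Lep at 0 in all PND2 libraries and the highest sum in replicate 2. Neutrophil markers fell in 3 of 3 tested cases (24.4 to 29.5 against 0.508 to 0.799), with Ngp at 0 in all 4-month libraries. T cell markers rose in 2 of 4 cases, from at most 0.390 to at most 2.26 RPKM, with Cd3e at 0 in all PND2 libraries, and of 3 erythroid markers 0 of 2 tested were called in limma, 0 at an unadjusted p under 0.05 and 0 with voom, where both were lower at an unadjusted p under 0.05 (553 to 771 against 225 to 650). The part of these cell types in the change of the AP-1 and Egr genes was not tested.

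Library totals were 29260736 to 38994657 at PND2 and 23810507 to 37350916 at 4 months, so that even the lowest member, Fosb at PND2, rested on 70 or more reads. Between 5.44 and 9.60% of gene reads were mitochondrial. Libraries of an age correlated at 0.961 to 0.970 and libraries of different ages at 0.911 to 0.922 (Pearson's r across genes, which are not independent).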

How the data were processed

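RNA-seq of aortic valves was analysed from the deposited RPKM, given per gene and per exon for 3 libraries per age. To obtain them the authors trimmed paired reads from a stranded mRNA kit with the FASTX-Toolkit, aligned them to mm10 with TopHat 2.1.0 and used easyRNASeq for counting over Ensembl annotation. R 3.2.2 is listed in the submitters' processing notes. The read minimum and the floor that the study applied later are not in the deposited values, of which 32408 correspond to 1 to 10 reads. RPKM times exonic length and library total gave whole reads for 100% of 169855 gene values above 0 (tolerance 0.01 reads). Read numbers in the text come from this step, and their intervals cover counting error only.

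Ages were compared with limma 3.58.1 in R 4.3.3 (eBayes with a trend, 2-sided tests). The model used log2(RPKM + 0.1) and every gene that reached 0.1 RPKM in 3 libraries, and Benjamini-Hochberg adjustment ran over all of them. On this scale the change of low genes is understated. Motif searches, summaries and figures were made in Python 3.11.15 with pandas 2.3.3, numpy 2.4.6, matplotlib 3.10.9 and scipy 1.17.1. The fit was tested on simulated counts with known changes. These had the same set spread beyond counting error for every gene, smaller than that of Fos at 4 months. The simulation therefore does not cover members with a wide spread. Alternatives, 18 in all, were added values of 1 and 0.01, testing every gene with a read, a filter at 1 RPKM, eBayes without trend, a gene-by-gene test with unequal variances as in the study, 3 other scalings, voom on the recovered reads, a replicate block, values floored at 10 reads and each library left out. Genes named were the members, the other immediate early genes and Egr relatives, the 3 largest called rises and falls of each other pathway list and the 3 nearest genes in pattern to Fos, Jun and Egr1. Some of the list genes are counted but not reported here by name. Members and lists were chosen with earlier results of these data known. Principal transcripts are those of GENCODE M21, on the same build. Each of their exons was matched to the deposited exon of the gene with the nearest ends. Start and end together differed by 1210 bases for Jund, 156 for exon 1 of Fosl1, 31 for Junb and 25 for exon 4 of Fosb. Elsewhere the difference was at most 6 bases.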

Additional observations from a re-analysis of the deposited data

How the results depend on the processing

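The 8 members called higher stayed at 8 or 7 in 17 of the 18 alternatives, and were 4 with the per-gene unequal-variance test, in which the spread is not shared between genes. The same test called 2 AP-1 dimer partners, 7 other immediate early genes, 1 upstream regulator, 0 feedback inhibitors, 4 targets and 2 heat shock genes. Upstream regulators were 2 without the trend, and 2 to 4 with a library left out, 2 when it was PND2 replicate 2 or 3 or 4-month replicate 1 or 3. Over all members and alternatives, 169 of 180 values kept their direction and their side of the threshold, 11 kept the direction and lost the call, and 0 reversed. Jund lost its call in 8 alternatives, and Fos, Junb and Egr1 in 1 each. Scalings moved the median of all genes by at most 0.07 on the log2 scale. Replicate numbers did not pair the samples, since the deviations of same-numbered libraries correlated at 0.0439, -0.0608 and -0.160. With the replicate block the number of upstream regulators called was 2, and Jund was not called (adjusted p = 0.0549). Across all genes that fit called 3004 higher and 4163 lower, against 3810 and 5463 without the block, and the unequal-variance test called 1466 and 1942. Depth limits the exon values of Fosb and Fosl1 at PND2, where 3 of the 4 principal exons held at most 14 reads, and the cause of each change in a count was not tested.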

Other observations

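A stretch of 105 bases within the first intron of the principal Fos transcript (chr12:85474691-85474795) is listed as an exon of another Fos transcript. It held 3, 4 and 2 reads in the PND2 libraries and 28, 2 and 4 reads in the 4-month libraries. In RPKM this was 7.14 in replicate 1 at 4 months (exact Poisson 95% interval 4.74 to 10.3, counting error only) and at most 1.32 in the other 5 libraries. The same library had the highest Fos level. As a share of the last Fos exon in the same library the stretch stood at 7.29% (4.84 to 10.5%) in replicate 1 at 4 months, 2.27 and 3.17% in replicates 2 and 3, and 8.41 to 16.6% at PND2. The interval for replicate 1 at 4 months overlapped those of all other 5 libraries, and no difference was tested.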
